A study of Mus with 6 samples.

Results

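Mki67 and 9 regulators of mitosis were examined in 4T1 cells, a mouse mammary carcinoma line, exposed to isopimaric acid (IPA) or left untreated. The 10 genes are Mki67, Top2a, Cdk1, Ccna2, Ccnb1, Plk1, Aurka, Aurkb, Birc5 and Cdc20. They were taken by Ensembl ID, by a rule that used no measured value, but with earlier results of these data known. All 10 were found among the 35304 IDs of the count table and passed the filter on low counts, as did 24935 IDs in all. The treated group comprised 3 samples of 4T1 cells given 10 µg/mL IPA, a plant diterpene acid, for 24 h. The untreated group comprised 3 samples of the same line, for which the labels state no treatment and no vehicle. RNA was extracted from wells of a plate with Trizol and sequenced, and the title of the series gives inhibition of proliferation and metastasis as its subject. Whether replicates came from separate cultures is not stated, and the p-values below reflect the spread among these 6 samples, part of which may be technical.

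Progress through mitosis is driven by the kinase Cdk1, which is active only when bound to a cyclin, and by the Polo and Aurora kinases. Exit from mitosis requires the anaphase-promoting complex, which with its coactivator Cdc20 marks cyclin B and securin for degradation. Transcripts of most of these genes are low in resting cells and accumulate late in the cell cycle, so they are widely used, with Mki67, to gauge proliferation in tumours. In bulk RNA, fewer cells in these phases and less transcript per cell cannot be told apart.

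Library depth ran from 3410411 to 43593509 counts in the IPA group and from 20257983 to 58924711 counts in the untreated group. The shallowest was IPA replicate 1, in which the least counted of the 10 genes, Plk1, still had 94 counts. Untreated replicate 2 stood apart from all other libraries. The other 5 libraries correlated with each other, in log2 expression across genes, at 0.922 to 0.987. Among these, pairs with IPA replicate 1 gave 0.922 to 0.935 and pairs without it 0.968 to 0.987. Untreated replicate 2 correlated with these 5 libraries at 0.779 to 0.811. Each result is therefore given for all 6 libraries and without untreated replicate 2, the second comparison setting 3 IPA against 2 untreated libraries. No 2 replicates agreed within sampling noise. The deposited IDs are not paired with gene names here beyond the 10 genes, so the identity of the cells was not checked against epithelial or other markers. Levels are given as normalised CPM, that is, CPM after the library total has been scaled by its TMM factor. The factor of untreated replicate 2 was 0.754, against 1.02 to 1.11 in the other libraries. These values are not divided by transcript length and are compared only between libraries, not between genes.

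Mki67 was lower in every IPA library than in every untreated library. Across all 6 libraries none of the 10 genes passed the test at an adjusted p under 0.05, in either direction. Without untreated replicate 2, Mki67, Ccna2 and Birc5 fell with IPA, by 0.69, 0.48 and 0.48 on the log2 scale, and none of the 10 rose, where 2.20% of all tested IDs were called lower. With RLE factors, with library totals, or with IPA replicate 1 left out as well, Mki67 alone of the 10 was called in that comparison. Of all IDs, these settings called 1.88%, 1.28% and 3.05% lower. With DESeq2, limma-voom or upper-quartile factors, 4 of the 10 were called lower in it, with Top2a added. DESeq2 called 3.82% of IDs with an adjusted p lower, limma-voom 3.94% of IDs and upper-quartile factors 581 of 25592 IDs. For Cdk1, Plk1, Aurka, Aurkb and Cdc20 the 95% intervals of the log2 fold change reached across 0 in both comparisons.

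**Figure D1:**
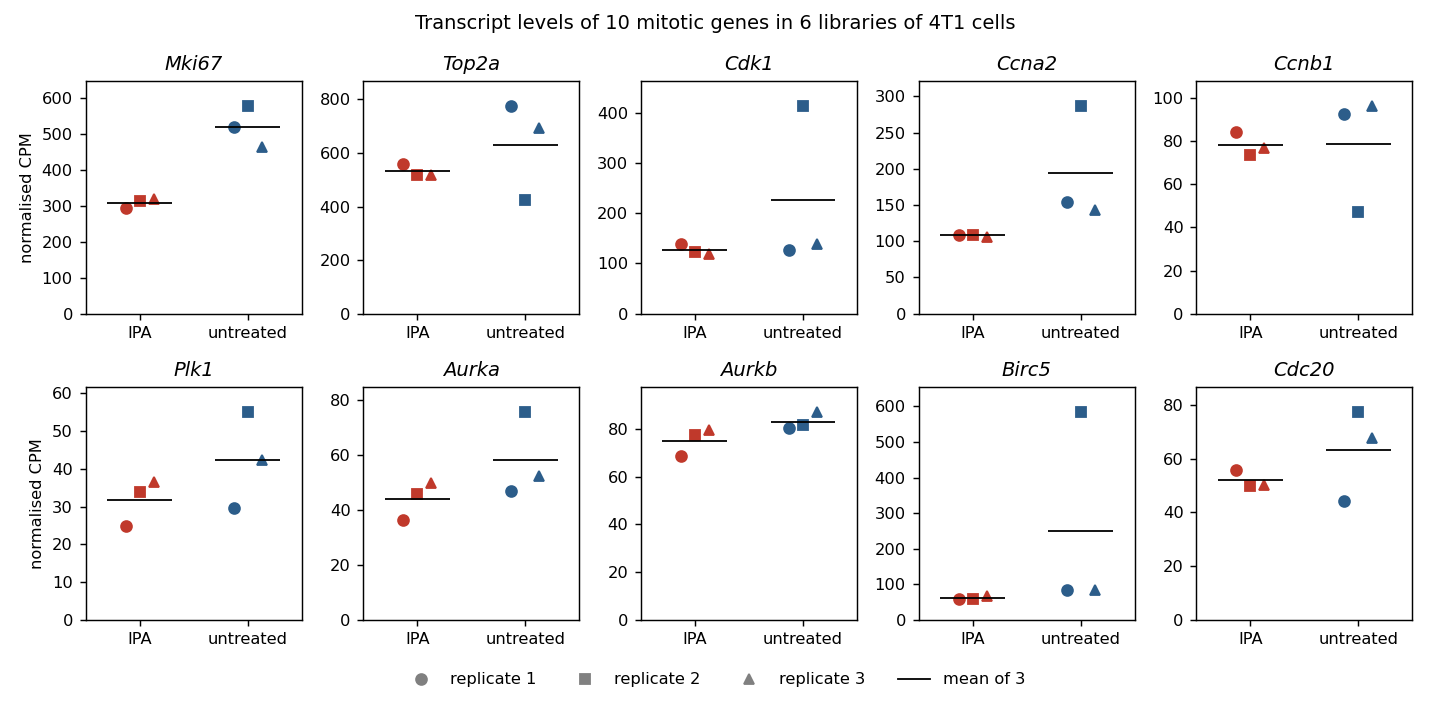
Normalised CPM (vertical axes, from 0) of the 10 genes in each library, with IPA to the left of untreated, 1 symbol per replicate and a line at the mean of 3. Mki67 lay between 294 and 318 in IPA libraries and between 465 and 578 in untreated libraries, while the square of untreated replicate 2 lay far from the other untreated libraries for Cdk1 and Birc5.

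Mki67 (ENSMUSG00000031004) encodes the nuclear protein Ki-67, which coats mitotic chromosomes and is the standard histological marker of cycling cells. It lies on mouse chromosome 7, from 135689784 to 135716450 (GRCm38). Its level was 294, 313 and 318 normalised CPM in IPA replicates 1, 2 and 3, against 518, 578 and 465 normalised CPM in untreated replicates 1, 2 and 3. The groups did not overlap, and untreated replicate 2 lay within 1.18 times the mean of the other 2 untreated libraries. The means were 309 ± 12.6 normalised CPM with IPA and 520 ± 56.6 normalised CPM in untreated cells (SD, n = 3 each). Over all 6 libraries the log2 fold change was -0.75 ± 0.21 (SE), with an edgeR unadjusted p of 0.00821 and an adjusted p of 0.657. Without untreated replicate 2 it was -0.69 ± 0.13 (SE; edgeR adjusted p = 0.00578), with a 95% interval of -0.97 to -0.42. Mki67 also passed DESeq2 over all 6 libraries, with an adjusted p of 0.0258, a test in which 0.454% of the IDs with an adjusted p were called lower.

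Top2a (ENSMUSG00000020914) encodes topoisomerase II alpha, which untangles sister chromatids and is the target of several chemotherapeutic drugs. The gene lies on chromosome 11, from 98992947 to 99024199. Its level was 558, 518 and 517 normalised CPM in IPA replicates 1, 2 and 3, against 776, 423 and 694 normalised CPM in untreated replicates 1, 2 and 3. The IPA libraries lay below untreated replicates 1 and 3 but above untreated replicate 2, so the groups overlapped. Over all 6 libraries the log2 fold change was -0.25 ± 0.28 (SE; edgeR adjusted p = 0.775). Without untreated replicate 2 it was -0.49 ± 0.14 (SE), and the edgeR adjusted p of 0.0531 missed the threshold. The same 5 libraries gave an adjusted p of 0.0149 with DESeq2 and 0.00797 with limma-voom, tests that called 3.82% and 3.94% of IDs lower. With edgeR they gave 0.0663 with RLE factors and 0.122 with library totals.

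The cyclins and their kinase differed in untreated replicate 2, which was the highest of the 6 libraries for Ccna2 and Cdk1 and the lowest for Ccnb1. Fold changes were not tested between genes. Ccna2 (ENSMUSG00000027715) encodes cyclin A2, which binds Cdk2 in S phase and Cdk1 on entry into mitosis, and lies on chromosome 3, from 36564865 to 36573038. Its level was 109, 109 and 106 normalised CPM in IPA replicates 1, 2 and 3, against 154, 287 and 143 normalised CPM in untreated replicates 1, 2 and 3. The groups did not overlap, and the IPA libraries had a coefficient of variation of 1.96%. Its log2 fold change was -0.85 ± 0.30 (SE; edgeR adjusted p = 0.657) over all 6 libraries. Without untreated replicate 2 it was -0.48 ± 0.13 (SE; edgeR adjusted p = 0.0407), a fold of 0.717. With that library left out, the adjusted p of Ccna2 was 0.0546 with RLE factors, 0.0991 with library totals and 0.0594 without IPA replicate 1 too, so the call was lost. Ccnb1 (ENSMUSG00000041431) encodes cyclin B1, the partner that activates Cdk1 at the entry into mitosis, and lies on chromosome 13, from 100778739 to 100786486. Its level was 84.4, 73.5 and 76.9 normalised CPM in IPA replicates 1, 2 and 3, against 92.7, 47.0 and 96.3 normalised CPM in untreated replicates 1, 2 and 3. Untreated replicate 2 was the lowest of the 6 libraries, and the group means were 78.2 ± 5.60 with IPA and 78.7 ± 27.5 in untreated cells (SD, n = 3 each). The log2 fold change of Ccnb1 was -0.01 ± 0.30 (SE; edgeR adjusted p = 0.993) over all 6 libraries and -0.30 ± 0.13 (SE; edgeR adjusted p = 0.24) without untreated replicate 2. The first of these changed sign under several settings. Over all alternatives, including those with a library left out, values ran from -0.34 (limma-voom without untreated replicate 2) to 0.18 (edgeR without untreated replicate 3).

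Cdk1 (ENSMUSG00000019942), on chromosome 10 from 69335146 to 69352912, encodes the kinase itself. It stood at 138, 124 and 119 normalised CPM in IPA replicates 1, 2 and 3, against 126, 414 and 138 normalised CPM in untreated replicates 1, 2 and 3. The IPA libraries and untreated replicates 1 and 3 overlapped, and untreated replicate 2 lay at 3.13 times the mean of the other 2 untreated libraries. The log2 fold change was -0.83 ± 0.47 (SE; edgeR adjusted p = 0.657) over all 6 libraries. It was -0.08 ± 0.13 (SE; edgeR adjusted p = 0.844) without untreated replicate 2, with a 95% interval of -0.36 to 0.19, and 0.02 when library totals replaced TMM. Over all 6 libraries the interval was -1.94 to 0.28.

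Birc5 and Aurkb encode 2 subunits of the chromosomal passenger complex, which corrects the attachment of chromosomes to the spindle. Birc5 (ENSMUSG00000017716), on chromosome 11 from 117849237 to 117855743, encodes survivin, which places the complex on the chromosomes and is also known as an inhibitor of apoptosis. Its level was 58.0, 57.8 and 67.4 normalised CPM in IPA replicates 1, 2 and 3, against 85.0, 584 and 83.9 normalised CPM in untreated replicates 1, 2 and 3. The groups did not overlap, but untreated replicate 2 was 6.92 times the mean of the other untreated libraries, which lay close together. The untreated mean of 251 ± 289 normalised CPM (SD, n = 3) accordingly had an SD larger than itself, against 61.1 ± 5.49 normalised CPM with IPA (SD, n = 3). The log2 fold change of Birc5 was -2.04 ± 0.78 (SE; edgeR adjusted p = 0.657) over all 6 libraries, and -0.48 ± 0.13 (SE; edgeR adjusted p = 0.0492) without untreated replicate 2. The size of the difference thus depended on that library, and the second value lay just inside the threshold. With that library left out, the adjusted p of Birc5 was 0.0632 with RLE factors, 0.113 with library totals and 0.0951 without IPA replicate 1 too.

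Aurkb (ENSMUSG00000020897), on chromosome 11 from 69045624 to 69051664, encodes the kinase of the same complex. Its level was 68.6, 77.3 and 79.6 normalised CPM in IPA replicates 1, 2 and 3, against 80.3, 81.6 and 87.1 normalised CPM in untreated replicates 1, 2 and 3. Untreated replicate 2 lay between the other 2 untreated libraries on this scale, and was the lowest of the 6 in CPM on library totals, at 61.3. The groups did not overlap on this scale, by a gap of under 1 normalised CPM, and overlapped in CPM on library totals. Its log2 fold change was -0.14 ± 0.18 (SE; edgeR adjusted p = 0.796) over all 6 libraries and -0.17 ± 0.13 (SE; edgeR adjusted p = 0.595) without untreated replicate 2. With library totals over all 6 libraries its sign was the opposite, at 0.07.

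Plk1 and Aurka encode kinases that mature the centrosomes and promote the entry into mitosis. Plk1 (ENSMUSG00000030867), on chromosome 7 from 122159435 to 122169884, stood at 24.8, 33.9 and 36.4 normalised CPM in IPA replicates 1, 2 and 3, against 29.8, 55.0 and 42.2 normalised CPM in untreated replicates 1, 2 and 3. Aurka (ENSMUSG00000027496), on chromosome 2 from 172356190 to 172370886, stood at 36.4, 45.9 and 49.9 normalised CPM in IPA replicates 1, 2 and 3, against 46.7, 75.5 and 52.3 normalised CPM in untreated replicates 1, 2 and 3. For both genes the groups overlapped, IPA replicate 1 was the lowest library and, in normalised CPM, untreated replicate 2 the highest. In CPM on library totals the highest library for Plk1 was untreated replicate 3. With untreated replicate 2 left out, the log2 fold change was -0.18 ± 0.18 (SE; edgeR adjusted p = 0.703) for Plk1 and -0.17 ± 0.15 (SE; edgeR adjusted p = 0.646) for Aurka. With IPA replicate 1 left out as well, the log2 fold changes were -0.03 for Plk1 and -0.04 for Aurka.

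Cdc20 (ENSMUSG00000006398), on chromosome 4 from 118432901 to 118437343, encodes the coactivator through which the spindle checkpoint holds the anaphase-promoting complex in check. Its level was 55.9, 49.7 and 50.3 normalised CPM in IPA replicates 1, 2 and 3, against 44.4, 77.4 and 67.6 normalised CPM in untreated replicates 1, 2 and 3. The 3 IPA libraries lay within the range of the untreated libraries, which differed among themselves by more than the IPA libraries did, with an SD of 17.0 against 3.42 normalised CPM. The log2 fold change was -0.28 ± 0.25 (SE; edgeR adjusted p = 0.717) over all 6 libraries and -0.14 ± 0.16 (SE; edgeR adjusted p = 0.76) without untreated replicate 2.

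**Figure D2:**
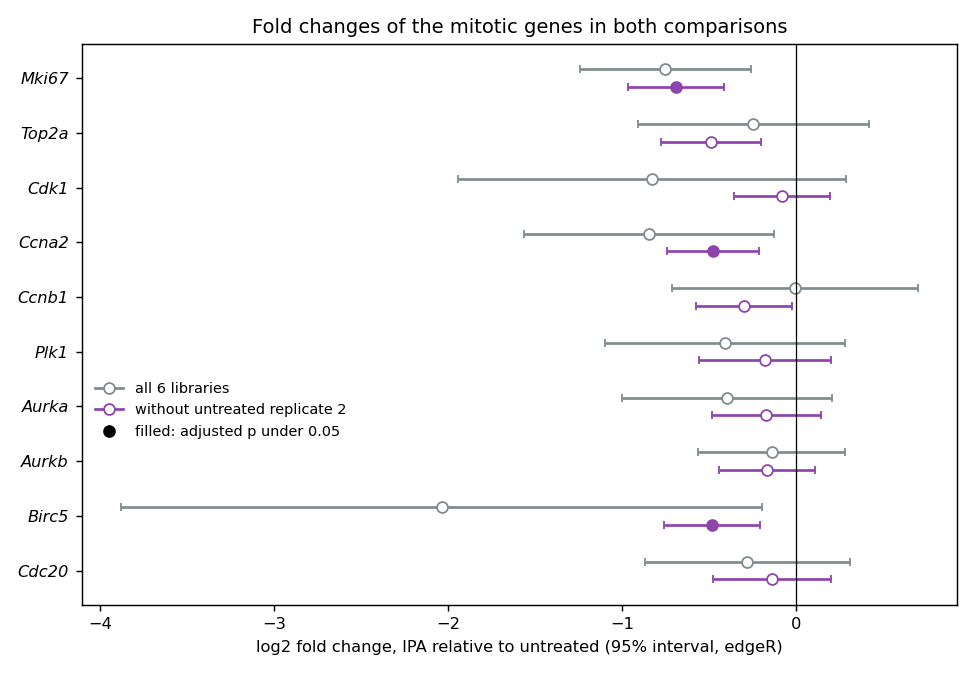
Log2 fold change of each gene, IPA relative to untreated (horizontal axis), with its 95% interval from edgeR, over all 6 libraries and without untreated replicate 2. Filled points, at an adjusted p under 0.05, are Mki67, Ccna2 and Birc5 without untreated replicate 2, at -0.69, -0.48 and -0.48.

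Counted together, 0 of the 10 genes were called lower and 0 higher over all 6 libraries by edgeR. That was also the share over the whole table, where 0% of 24935 IDs were called in either direction. At an unadjusted p under 0.05, Mki67, Ccna2 and Birc5 were lower, 3 of 10, against 4.38% of all IDs. DESeq2 called Mki67 alone, and limma-voom called none. edgeR called 3 of the 10 lower without untreated replicate 2, where 564 of 25592 tested IDs were called lower. With IPA replicate 1 left out too, only Mki67 of the 10 was called, where 3.05% of IDs were called lower. With library totals in place of TMM, and without untreated replicate 2, it was again Mki67 alone, where 1.28% were called lower, as with RLE factors, where 1.88% were. The same 5 libraries gave 4 of the 10 lower with DESeq2, limma-voom and upper-quartile factors. These called 3.82%, 3.94% and 581 of 25592 IDs lower.

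In the main edgeR fit, with TMM factors, all 10 log2 fold changes were below 0 in both comparisons. Library totals turned Ccnb1 and Aurkb above 0 over 6 libraries and Cdk1 without untreated replicate 2. RLE factors turned Ccnb1 over 6 libraries, as did DESeq2, limma-voom, no filter on low counts and the replicate block. Of all tested IDs, 54.5% were below 0 over 6 libraries and 54.2% without untreated replicate 2. The 10 genes are measured in the same libraries and their transcripts vary with the cell cycle, so they do not count as independent observations. Their median log2 fold change was -0.41 over all 6 libraries, beside a median of -0.08 over all tested IDs, and -0.24 without untreated replicate 2, beside -0.04. In that second comparison the fold change of Mki67 was lower than that of all but 10.9% of IDs, while 46.0% of IDs had a lower fold change than Cdk1. All IPA libraries lay below all untreated libraries for 4 of the 10 genes, Mki67, Ccna2, Aurkb and Birc5, where 10.8% of IDs did so. In CPM on library totals these were 3 genes, without Aurkb, where 6.38% of IDs did so. Set against untreated replicates 1 and 3 only, the 3 IPA libraries lay below both for 6 genes, with Top2a and Ccnb1 added, where 18.2% of IDs did so. In CPM on library totals these were 5 genes, where 13.8% of IDs did so.

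**Figure D3:**
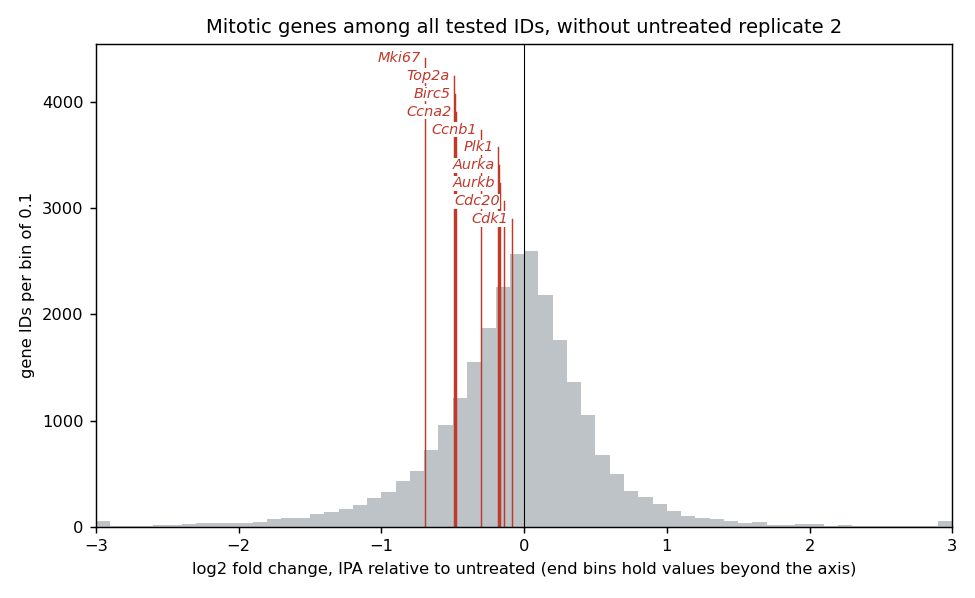
Number of gene IDs per bin of log2 fold change (IPA relative to untreated, horizontal axis) over all IDs tested without untreated replicate 2, with a line at the value of each of the 10 genes. All 10 lines lie left of 0, from -0.69 for Mki67 to -0.08 for Cdk1, which was at 0.02 with library totals in place of TMM.

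Reads of the 10 genes together made up 0.159%, 0.152% and 0.150% of all counts in IPA replicates 1, 2 and 3, against 0.199%, 0.197% and 0.191% in untreated replicates 1, 2 and 3. The 2 groups did not overlap in this share, and no such comparison is given for other sets of genes. Mki67 and Top2a contributed the most reads to it in IPA replicates 1, 2 and 3 and in untreated replicates 1 and 3. In untreated replicate 2 Birc5 contributed the most, with 25880 of 116162 reads, against 4533 of 101062 in untreated replicate 3. The share of untreated replicate 2 therefore rests in large part on Birc5. In normalised CPM the 10 genes summed to 1428, 1402 and 1421 in IPA replicates 1, 2 and 3, against 1952, 2622 and 1870 in untreated replicates 1, 2 and 3. Untreated replicate 2 was thus close to the other untreated libraries in the share of counts and above them after TMM scaling. In normalised CPM, 7 of the 10 genes were highest of all 6 libraries in untreated replicate 2, and Top2a and Ccnb1 were lowest there. On that scale the library was the highest or lowest for 82.8% of the 8782 IDs with a mean of at least 20 normalised CPM. In CPM on library totals, 4 genes were highest there, Cdk1, Ccna2, Aurka and Birc5, and 3 were lowest, Top2a, Ccnb1 and Aurkb, where 86.1% of those IDs were highest or lowest. In normalised CPM, relative to the mean of untreated replicates 1 and 3, its log2 differences ran from -1.01 for Ccnb1 to 2.79 for Birc5, where the quartiles of those 8782 IDs were -0.82 and 0.64. The part of cell state, handling or library preparation in this difference was not tested.

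**Figure D4:**
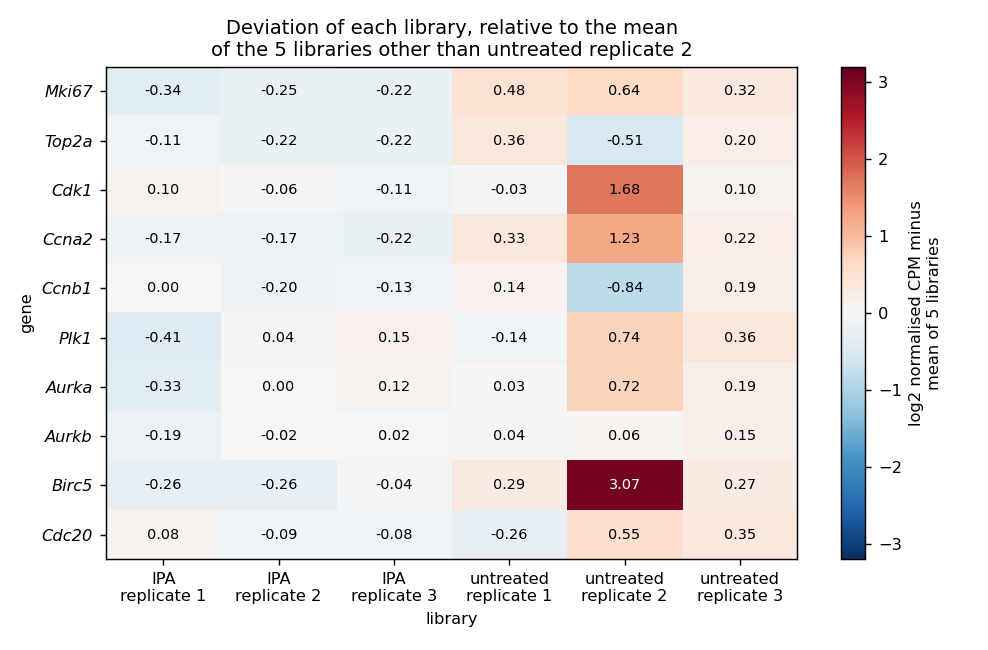
Log2 normalised CPM of each gene (rows) in each library (columns), as the difference from its mean over the 5 libraries other than untreated replicate 2. Untreated replicate 2 reached 3.07 for Birc5 and 1.68 for Cdk1 and was at -0.84 for Ccnb1, while the value farthest from 0 in the other libraries was 0.48, for Mki67 in untreated replicate 1.

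Ratios of read counts between genes within 1 library do not depend on the scaling of libraries. They are compared between libraries only, since transcript lengths differ, and the pairs were chosen with the values known. Reads of Mki67 per read of Top2a numbered 0.527, 0.605 and 0.615 in IPA replicates 1, 2 and 3, against 0.668, 1.37 and 0.670 in untreated replicates 1, 2 and 3. Reads of Birc5 per read of Aurkb, its partner in the passenger complex, numbered 0.846, 0.748 and 0.847 in IPA replicates 1, 2 and 3, against 1.06, 7.16 and 0.963 in untreated replicates 1, 2 and 3. Both ratios were lower in all IPA libraries than in all untreated libraries. They were 2 of the 8 pairs examined, and for the other 6 the groups overlapped over 6 libraries. No share over pairs of other genes is given beside this count.

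Reads of Cdk1 per read of Ccnb1 numbered 1.64, 1.69 and 1.55 in IPA replicates 1, 2 and 3, against 1.36, 8.80 and 1.44 in untreated replicates 1, 2 and 3. The IPA libraries lay above untreated replicates 1 and 3 and below untreated replicate 2. The ratio of Plk1 to Aurka was 0.681, 0.739 and 0.730 in IPA replicates 1, 2 and 3, against 0.637, 0.729 and 0.807 in untreated replicates 1, 2 and 3, and the groups overlapped. For this pair untreated replicate 2 lay between the other 2 untreated libraries, and the highest ratio was 1.27 times the lowest with or without it. For Cdk1 to Ccnb1 the highest was 6.48 times the lowest over 6 libraries and 1.24 times without untreated replicate 2.

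Reads of Mki67 per read of Cdk1 numbered 2.13, 2.53 and 2.67 in IPA replicates 1, 2 and 3, against 4.12, 1.40 and 3.36 in untreated replicates 1, 2 and 3. Reads of Cdk1 per read of Ccna2 numbered 1.27, 1.13 and 1.13 in IPA replicates 1, 2 and 3, against 0.820, 1.44 and 0.968 in untreated replicates 1, 2 and 3. In both pairs the groups overlapped only through untreated replicate 2. The ratios of Ccna2 to Ccnb1, at 1.29, 1.49 and 1.37 in IPA replicates 1, 2 and 3, against 1.66, 6.10 and 1.49 in untreated replicates 1, 2 and 3, overlapped also without it. So did those of Cdc20 to Ccnb1, at 0.663, 0.677 and 0.655 in IPA replicates 1, 2 and 3, against 0.479, 1.65 and 0.702 in untreated replicates 1, 2 and 3.

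**Figure D5:**
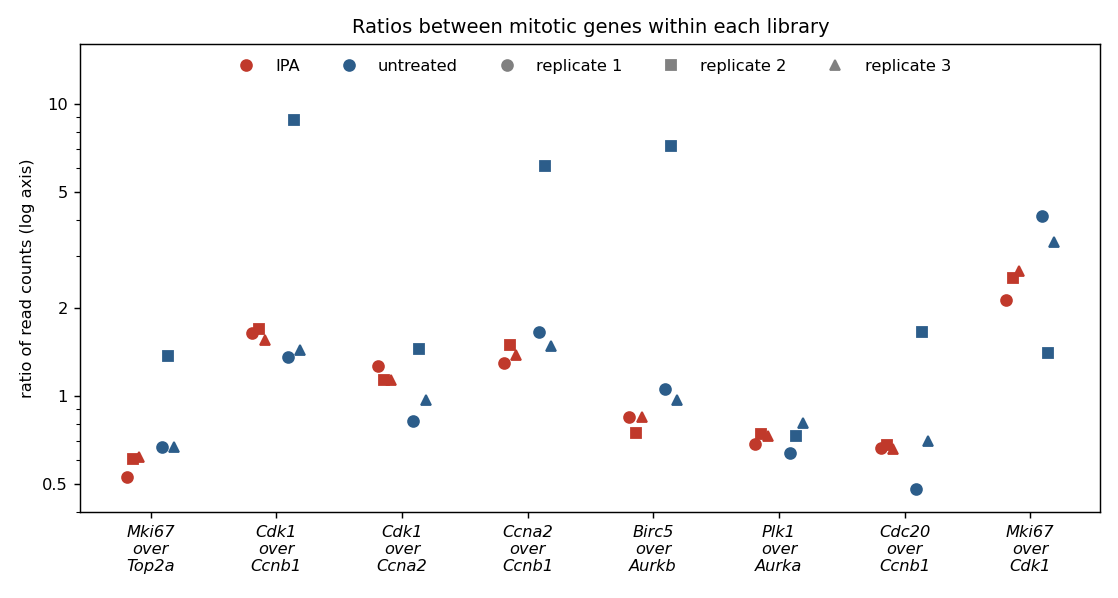
Ratio of read counts between pairs of the 10 genes within each library (vertical log axis), with IPA to the left of untreated for each pair. Untreated replicate 2 (blue squares) stood at 8.80 for Cdk1 over Ccnb1 and 7.16 for Birc5 over Aurkb, far above all other libraries, and at 0.729 for Plk1 over Aurka, among them.

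Other genes of the late cell cycle were taken from the mouse phase markers of scran, which are given by Ensembl ID and are not named here. Its G2M list of 93 genes holds 6 of the 10 genes, Cdk1, Ccna2, Plk1, Aurka, Aurkb and Cdc20, and these were set aside. Over all 6 libraries, 0 of the other 86 tested G2M genes were called higher or lower by edgeR, and their median log2 fold change was -0.01, beside -0.08 over all IDs. In the comparison without untreated replicate 2, 5 of the 86 were called lower and 0 higher, that is 5.81% lower, beside the 2.20% of all IDs given above. Their median was then -0.09, beside -0.04 over all IDs. Of the S list, 2 of 79 tested genes were lower and 1 higher in that comparison, and of the G1 list, 3 of 118 were lower and 2 higher. The S and G1 medians were -0.03 and -0.06.

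The mean profile of the 10 genes over the libraries was set beside that of every ID with a mean of at least 5 CPM, 13113 in all. Over 6 libraries the most alike other ID was ENSMUSG00000045394, with a Pearson r of 0.996, and over the 5 libraries without untreated replicate 2 it was ENSMUSG00000026526, with an r of 0.998. Over so few libraries a high r is common: it was above 0.9 for 10.2% of the other IDs over 6 libraries and for 3.88% over 5. Of the 50 most alike IDs, 1 was on the G2M list over 6 libraries and 0 over 5. Each of the 10 genes is itself part of the mean profile, which raises its r, unlike that of the other IDs. Among the 10 genes the r over 6 libraries ran from -0.66 for Ccnb1 to 0.979 for Ccna2. Over 5 libraries it ran from 0.281 for Cdk1 to 0.949 for Birc5. These points share their libraries and depth, and the 6-library values follow untreated replicate 2 in large part.

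Some counts may include reads of neighbouring or similar genes, since neither strand nor multiple mapping is described for the counting. In the RefSeq annotation of GRCm38.p6, Ccna2 overlaps Exosc9, Aurka overlaps Cstf1, Cdc20 overlaps Elovl1 and Top2a overlaps an uncharacterised locus. Ccnb1 has an annotated pseudogene, Ccnb1-ps. The values of these 5 genes are uncertain to that extent. Pseudogenes were sought only by symbols made of the gene name and -ps. Similar sequences under other names were not searched for, so the other genes were not cleared of them. For each of the 10 genes, 0 other IDs had counts within 2% of its own in all 6 libraries. Of the genes called without untreated replicate 2, Mki67 and Birc5 had no overlapping gene in that annotation.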

How the data were processed

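RNA-seq of total RNA from 6 samples of 4T1 cells was deposited by the authors as a table of raw counts by Ensembl gene, per the file headers. GRCm38 and mm10 are named in the submitters' processing notes. For the aligner, counting tool and annotation release, nothing is given in the sources used here. Groups and replicate numbers come from the sample titles.

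Groups were compared in edgeR 4.0.16 (R 4.3.3) with a robust quasi-likelihood fit, TMM factors, the filterByExpr filter and Benjamini-Hochberg adjustment over all IDs tested. A gene was called at an adjusted p under 0.05. The SE was the log2 fold change divided by the square root of F. DESeq2 1.42.0, limma 3.58.1, other scalings and filters, a replicate block and each library left out were alternatives. The procedure was tested on simulated data, in which no library was set apart from its group as untreated replicate 2 was.

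The genes, lists and tests were chosen with earlier results of these data known. All 10 genes are named. Symbols were paired with the 10 IDs in the list itself, and loci were matched by symbol to RefSeq (GRCm38.p6). The reference table holds an Ensembl ID for 0 of its 49997 genes. Lists by symbol, of further mitotic genes and of cell type markers, were therefore not analysed here, and phase markers of scran 1.30.0 were used instead: a gene was on a phase list if it led 90% or more of its pairs and had 20 or more of them. In the shallowest library 3 counts correspond to 0.88 CPM, and in the deepest to 0.0509 CPM. These floors cover counting error only.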

Additional observations from a re-analysis of the deposited data

How the results depend on the processing

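Over 21 alternatives the log2 fold change was below 0 in all 21 for Mki67, Top2a, Ccna2, Plk1, Aurka, Birc5 and Cdc20, in 20 for Cdk1 and Aurkb, and in 11 for Ccnb1. Mki67 was called in 9 alternatives, Ccna2 in 5, Top2a and Birc5 in 4 each and the other 6 genes in 0. Each of these calls, apart from that of Mki67 with DESeq2 and those with quality weights, came from leaving out untreated replicate 2. Opposite signs, none of them called, were Cdk1 at 0.0247 with library totals and untreated replicate 2 left out, and Aurkb at 0.0719 with library totals. For Ccnb1 over 6 libraries they were 0.00966 with DESeq2, 0.0464 with limma-voom and 0.00995 with RLE factors. They were 0.156 with library totals, 0.0067 with no filter on low counts and 0.0597 with the replicate block. With 1 sample left out, the lowest value of Ccnb1 was -0.30 (without untreated replicate 2) and the highest 0.175 (without untreated replicate 3). It was also above 0 without IPA replicate 2 (0.0354), IPA replicate 3 (0.00218) or untreated replicate 1 (0.171).

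Of the 10 genes, 0 to 3 were lower with 1 sample left out, all 3 without untreated replicate 2. The number was 1 with DESeq2, where 0.454% of IDs with an adjusted p were called lower. It was 3 with limma-voom and sample quality weights, where 3.03% of IDs were called lower and the weight of untreated replicate 2 was 0.0388. With untreated replicate 2 left out it was 4 with DESeq2, with limma-voom and with upper-quartile factors, 1 with RLE factors and with library totals, and 1 with IPA replicate 1 left out too. Their median log2 fold change, -0.41 in the main comparison, was -0.15 with library totals and -0.14 with library totals and untreated replicate 2 left out. Library totals moved the median of all IDs from -0.08 to 0.13, and from -0.04 to 0.06 without untreated replicate 2. The 10 genes' median lay below that of all IDs by 0.14 to 0.49 in every setting.

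Over the whole table the IDs called higher and lower were 45 and 83 with DESeq2, which gave 6669 IDs no adjusted p, 492 and 755 with quality weights, and 0 to 322 and 0 to 564 with 1 sample left out. Library totals and no filter each called 1 higher. With untreated replicate 2 left out they were 645 and 656 with DESeq2, 660 and 1009 with limma-voom, 364 and 481 with RLE factors, 309 and 581 with upper-quartile factors, 691 and 327 with library totals, and 719 and 763 without IPA replicate 1 too. With 1 sample left out, any choice other than untreated replicate 2 called 0 higher and 0 lower. The edgeR coefficient of variation between replicates (BCV) was 0.570 over 6 libraries and 0.178 without untreated replicate 2. Why the numbers of calls moved between settings was not tested.

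With the replicate block 0 of the 10 genes were called and their median was -0.39. For replicates 1, 2 and 3 the deviations from the group means correlated between groups at -0.0771, 0.0183 and 0.161, and 3 of 6 samples correlated best with their own number, so the numbers were not taken to pair the samples. Depth limits IPA replicate 1 most, where Plk1 rests on 94 counts.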
